A study of Mus musculus with 2 samples.

Results

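The expression of 10 genes of the growth arrest and p53 response, out of 32285 genes counted, was described in single cells of RM-1 prostate tumors. The genes were Gadd45g, Gadd45a, Gadd45b, Cdkn1a, Cdkn2a, Cdkn1b, Mdm2, Trp53, Ccng1 and Phlda3. They were chosen by name, with their levels in these libraries known, so their levels and the differences between the libraries are a description and no test was made of them. RM-1 is a mouse prostate cancer line made with activated Ras and Myc. RM-1 cells had been injected into the prostate of C57BL/6 mice, and immune cells were enriched during sorting, so the shares of cell types were set in part by the sort. The control tumor had been given vehicle and the ENZ tumor enzalutamide, an androgen receptor antagonist, and the labels give both as WT. Mouse age, dose and time are not given for these samples in the labels. Each group was 1 tumor of 1 mouse and 1 droplet-based 3' library, so there was no replicate check. The treatment, the mouse, the dissociation and the library cannot be told apart, and every interval below covers counting error only.

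The control library held 170830346 UMIs (unique molecular identifiers, each standing for 1 captured RNA molecule) and the ENZ library 162030149. Cancer cells were barcodes with at least 8000 UMIs, at most 20% mitochondrial UMIs, at most 1 UMI of Ptprc (the pan-leukocyte gene) and at least 5 UMIs over Cacna2d1, Rbfox2, Kif21a and Rhox5. This gave 3807 control and 4290 ENZ cells, with median depths of 21957 and 22693.5 UMIs. Few cells lay near the marker limit: 39 control and 36 ENZ cells had 5 to 7 marker UMIs, and 18 and 7 barcodes met every other criterion with 3 or 4. Among the cancer cells, 442 control and 365 ENZ cells had UMIs of at least 3 of the 6 markers of an immune type, and were kept. The gated cells held the epithelial keratin Krt8 at 437 CPM in control against 508 CPM in ENZ cells, and also the collagen Col3a1 at 522 and 520 CPM. CPM is a gene's UMIs summed over the cells of a class, per 1000000 UMIs of that class. Cells with at least 10 UMIs over Top2a, Mki67, Cenpf and Ube2c were called dividing (1249 control and 1209 ENZ cells, or 32.8% and 28.2%). The split left 86 control and 81 ENZ cells just below it, with 8 or 9 UMIs, and 91 and 74 just above it, with 10 to 12. Of the other barcodes, 9 immune classes had at least 50 cells in each library, each named where at least 3 of 6 markers had a UMI and no other type had as many. T cells with at least 2 UMIs over Foxp3, Ikzf2 and Il2ra were called Tregs. This class held 52 control and 124 ENZ UMIs of Foxp3, and also 50 and 104 UMIs of Cd8a, so it took in Cd8a-expressing cells as well. The classes ranged from 52 ENZ mature DCs (dendritic cells) to 1300 ENZ monocytes. The libraries shared 40 barcodes of at least 1000 UMIs, 8 of them cancer cells in both.

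As background, p53, encoded by Trp53, is a transcription factor that is stabilised by DNA damage and other stress and raises genes that stop the cell cycle, repair DNA or drive cell death. Cdkn1a encodes p21, a cyclin-dependent kinase (CDK) inhibitor and the best known p53 target, and Mdm2 encodes the ubiquitin ligase that degrades p53 and is itself a p53 target. The GADD45 proteins are small nuclear stress sensors that bind p21, PCNA, CDK1 and the kinase MEKK4 (Map3k4), upstream of p38 and JNK. Gadd45a is a p53 target, whereas Gadd45b is known for induction by NF-kB and TGF-beta, and Gadd45g for induction by cytokines and for its silencing in many tumors. Cdkn2a encodes p16INK4a and p19ARF from separate first exons, and ARF restrains MDM2. Reads from the 3' end do not tell these transcripts apart. Cdkn1b encodes the CDK inhibitor p27, Ccng1 encodes cyclin G1 and Phlda3 encodes an inhibitor of AKT, the last pair being p53 targets.

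On GRCm38, Gadd45g lies at chr13:51846678-51848468, Gadd45a at chr6:67035096-67037457 and Gadd45b at chr10:80930073-80932204, so the family is spread over 3 chromosomes. Cdkn1a lies at chr17:29090976-29100727, Trp53 at chr11:69580359-69591873 and Mdm2 at chr10:117688875-117710758. Cdkn2a lies at chr4:89274471-89294653, Cdkn1b at chr6:134920401-134925513, Ccng1 at chr11:40748552-40755311 and Phlda3 at chr1:135766119-135769136. A transcript on the opposite strand, E230016M11Rik, overlaps Gadd45a and is counted as a gene of its own. The 250 bases before the RefSeq start are printed for the GADD45 family, on which the results below turn, and for Cdkn1a, as the best known p53 target among the members, 5′ to 3′ on the gene's strand (GRCm38.p6). The windows are chr13:51846425-51846674 for Gadd45g (plus strand), chr10:80929841-80930090 for Gadd45b (plus), chr6:67037408-67037657 for Gadd45a (minus) and chr17:29090729-29090978 for the first of the 2 Cdkn1a starts (plus). Capitals mark matches to CCAAT, to the TATA box and to the p53 decamer, of which a pair makes a full p53 site.
Gadd45g: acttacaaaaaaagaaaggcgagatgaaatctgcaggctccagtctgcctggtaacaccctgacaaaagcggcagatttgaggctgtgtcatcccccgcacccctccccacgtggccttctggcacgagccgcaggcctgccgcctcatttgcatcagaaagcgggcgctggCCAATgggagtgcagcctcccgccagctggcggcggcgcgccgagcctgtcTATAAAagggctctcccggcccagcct
Gadd45b: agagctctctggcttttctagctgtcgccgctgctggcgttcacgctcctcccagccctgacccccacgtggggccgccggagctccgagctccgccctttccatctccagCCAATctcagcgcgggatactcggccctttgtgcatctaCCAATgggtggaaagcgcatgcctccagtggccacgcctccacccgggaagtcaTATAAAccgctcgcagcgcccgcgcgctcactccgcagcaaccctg
Gadd45a: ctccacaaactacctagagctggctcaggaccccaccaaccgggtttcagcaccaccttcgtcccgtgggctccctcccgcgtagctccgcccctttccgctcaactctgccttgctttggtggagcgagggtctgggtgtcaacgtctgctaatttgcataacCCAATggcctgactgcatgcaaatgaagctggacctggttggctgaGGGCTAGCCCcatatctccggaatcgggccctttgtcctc
Cdkn1a: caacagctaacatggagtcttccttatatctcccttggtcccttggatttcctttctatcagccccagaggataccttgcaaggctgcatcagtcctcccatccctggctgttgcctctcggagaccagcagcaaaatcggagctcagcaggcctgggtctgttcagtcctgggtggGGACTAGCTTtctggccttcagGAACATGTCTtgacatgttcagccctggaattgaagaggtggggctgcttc
Gadd45g and Gadd45b each hold the TATA box letters TATAAA, which 13.6% of 32817 RefSeq promoter windows hold on either strand, and all 3 GADD45 genes hold CCAAT, found in 37.4%. The Gadd45a window holds the p53 decamer GGGCTAGCCC, and the Cdkn1a window holds GGACTAGCTT and GAACATGTCT, whereas no decamer was found in those of Gadd45g and Gadd45b. The Cdkn1a decamers are apart, at -73 to -64 and -51 to -42 from the start. A full site with at most a single base between its decamers, found in 3 of 32817 windows, was in no window of the 10 genes. Over the window from 250 bases before to 50 after the start, 8.36% of promoters hold a decamer, and Mdm2 (GAACTTGCCT), Trp53 (GGACTTGCCC) and Ccng1 (GGGCAAGCCT) were also among them. The cyclic AMP element TGACGTCA (1.79% of promoters) and the AP-1 motif TGANTCA (7.81%), searched on both strands, were in no window of the 10 genes. The shorter TGACG (20.8% of promoters) was in those of Cdkn1b and Mdm2, in both on the opposite strand after the start. A match of letters is a description, and its absence from these windows says nothing of sites elsewhere.

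Gadd45g was the member that differed most between the libraries in cancer cells. Its level was 148 CPM in the control (14797 UMIs) and 56.5 CPM in the ENZ library (6420 UMIs). The ENZ/control ratio was 0.383 (95% interval 0.371 to 0.394; log2 -1.39), which is rank 16 from the lowest of 10396 genes compared. Gadd45g was lower in the ENZ library both in non-dividing cells, at 185 and 67.4 CPM (ratio 0.365), and in dividing cells, at 104 and 40.7 CPM (ratio 0.390). Gadd45b was lower by less, at 131 CPM in control against 91.5 CPM in ENZ cells (ratio 0.699, 0.681 to 0.718). Its ratio was 0.651 in non-dividing cells, at 171 and 111 CPM, and 0.747 in dividing cells, at 83.9 and 62.6 CPM. Gadd45a differed little, at 20.5 and 18.7 CPM (ratio 0.915, 0.861 to 0.973). The 3 paralogs thus ranged from a ratio of 0.383 to 0.915 in the same cells.

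A gene counted as past the threshold when its ratio was at least 1.5 or at most 1/1.5. Of the 9 members with enough UMIs (at least 50 over both libraries and 5 CPM in one of them), 1 was past it in cancer cells, Gadd45g, against 2.04% of all genes (0.644% higher and 1.39% lower). In dividing cells 1 of 9 was past it (background 2.68%, with 0.859% higher and 1.82% lower), and in non-dividing cells 2 of 9 (2.42%, with 0.724% higher and 1.7% lower), Gadd45g and Gadd45b. The median log2 ratio of the 9 members was -0.13, beside 0.03 over all genes. By interval, 2 of the 9 lay above 1 and 5 below 1, beside 42.1% and 31.9% of all genes, so an interval off 1 was common at this depth. Cdkn2a was the member that was not counted.

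**Figure D1:**
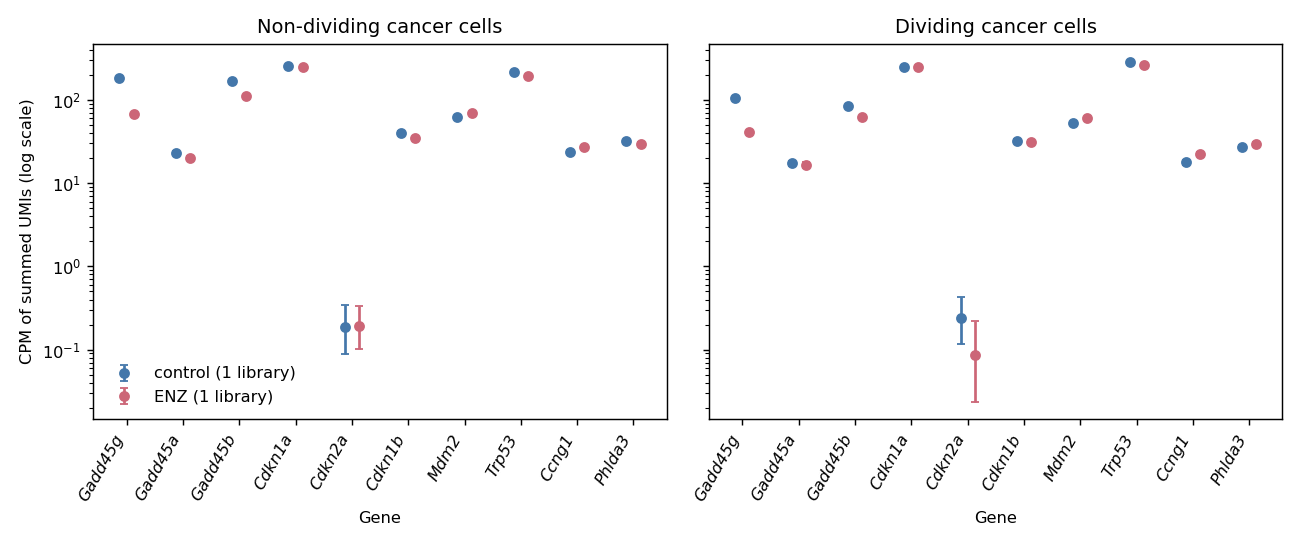
Levels of the 10 genes in non-dividing (left) and dividing (right) cancer cells. The y axis is CPM of summed UMIs on a log scale, points are the control (blue) and ENZ (red) libraries, and bars are exact Poisson 95% intervals, mostly smaller than the points. Gadd45g stood at 185 and 67.4 CPM in non-dividing cells, while Cdkn1a nearly coincided and Cdkn2a lay under 1 CPM throughout.

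Per cell, Gadd45g was unevenly spread. Each cell was thinned to 8000 UMIs so that depth was equal, and no cell was left out. At that depth 45.4% of control and 26.7% of ENZ cells had a Gadd45g UMI (66.2% and 50.1% before thinning). Cells with 5 or more UMIs made up 9.32% of the control and 1.77% of the ENZ cells, a larger relative difference than that of the share with any UMI. The ratio of variance to mean over cells, which is 1 for counting noise alone, was 4.81 for control and 3.07 for ENZ cells for Gadd45g, and 1.16 and 1.18 for Trp53. Where spread exceeds counting noise this ratio also depends on the mean. The mean of Gadd45g differed between the libraries, so its values do not rank the libraries by unevenness. Gadd45b was found in 48.6% and 44.2% of thinned cells, and 7.07% and 2.52% had 5 or more UMIs. None of the classes is known to lack Gadd45g, so the level in barcodes of at most 100 UMIs, which hold free RNA, stands in as background. There it was at 207 CPM in control against 88.5 CPM in ENZ barcodes. Free RNA made up at most 4.23% and 3.41% of the cancer cells' UMIs, as read from the neutrophil genes S100a8 and S100a9, and after its subtraction the log2 ratio of Gadd45g was -1.39.

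**Figure D2:**
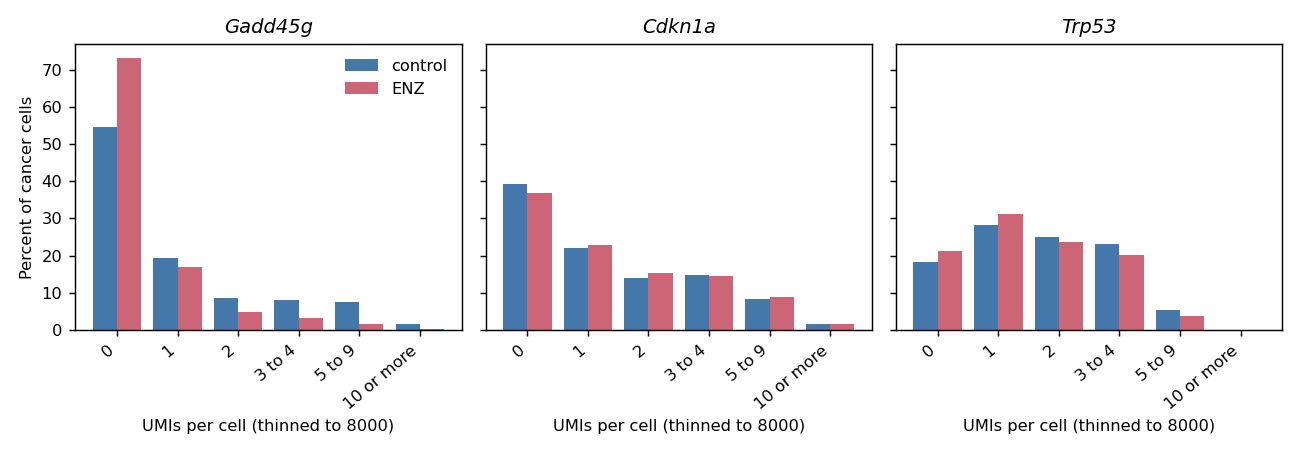
Share of cancer cells (y axis, percent) by the number of UMIs per cell after thinning to 8000 UMIs (x axis) for Gadd45g, Cdkn1a and Trp53, in the control (blue, 3807 cells) and ENZ (red, 4290 cells) libraries. Cells without a Gadd45g UMI were 54.6% of the control and 73.3% of the ENZ cells, and both libraries had nearly the same distribution for Cdkn1a.

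The genes of the immediate early response, which are also raised by tissue dissociation, moved with Gadd45g and Gadd45b. All 17 genes of the list fixed for this response were lower in the ENZ cancer cells by their interval, beside 31.9% of all genes, and 8 were past the threshold (median log2 ratio -0.48). Fos, a subunit of AP-1, was at 1001 CPM in control against 537 CPM in ENZ cells (ratio 0.537), and Dusp1, a MAP kinase phosphatase, at 405 and 219 CPM (ratio 0.539). Of 10 NF-kB targets, 8 had enough UMIs and 2 were past the threshold, both lower, beside 1.39% of all genes. By interval 3 of the 8 lay above 1 and 5 below, beside 42.1% and 31.9% of all genes, and the list summed to 2592 CPM in control against 2548 CPM in ENZ cells. The 2 genes were the cytokine Il1b, at 42.3 and 16.2 CPM (ratio 0.384), and Bcl2a1b, a survival gene of leukocytes, at 10.9 and 4.17 CPM (ratio 0.381). The 6 neutrophil markers also moved, with a sum of 88.1 CPM in control and 28.2 CPM in ENZ cancer cells, led by S100a9 at 49.1 and 14.7 CPM, and all 6 had UMIs in both. Macrophage markers summed to 39.8 and 23.2 CPM and NK markers to 5.42 and 2.17 CPM. Monocyte markers (74.0 and 96.2 CPM) and those of type 2 dendritic cells (17.6 and 23.6 CPM) were higher in ENZ cells. The parts of dissociation and of immune cell RNA in the Gadd45g ratio were not tested. Gadd45g in neutrophils was at 87.3 CPM in control and 77.4 CPM in ENZ cells, beside 148 and 56.5 CPM in cancer cells. Cells were also compared at like Fos counts, a choice made after these values were seen. In thinned cells without a Fos UMI, Gadd45g was at 74.9 CPM in control against 43.7 CPM in ENZ cells. In cells with 10 or more Fos UMIs it was at 254 and 104 CPM. Gadd45g was higher in the control in 4 of 4 Fos bins, by 1.71 to 2.54 times, and in 5 of 5 bins of division markers, by 2.23 to 3.19 times. By keratins, it was at 230 and 105 CPM in cells without a Krt8 or Krt18 UMI and at 130 and 51.3 CPM in those with 10 or more. Along the Fos bins Gadd45b was higher at each step, going from 56.9 to 251 CPM in the control and from 63.4 to 171 CPM in the ENZ library, and in cells without a Fos UMI it was not lower in the ENZ library.

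Across cells of a library, rank correlations were low, and are given as a description since cells share a library and its depth. Gadd45b had a Spearman's rho of 0.43 with Junb in the 3807 control cells and 0.35 in the 4290 ENZ cells. Gadd45g had 0.28 and 0.12 with Jun. Among the 36 pairs of the 9 members without Cdkn2a, Gadd45g with Gadd45b had the highest rho in both libraries, 0.21 and 0.14, and 34 of 36 pairs were at or under 0.1 in each. The members therefore showed little covariation from cell to cell at this depth, where many counts are 0 or 1.

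**Figure D3:**
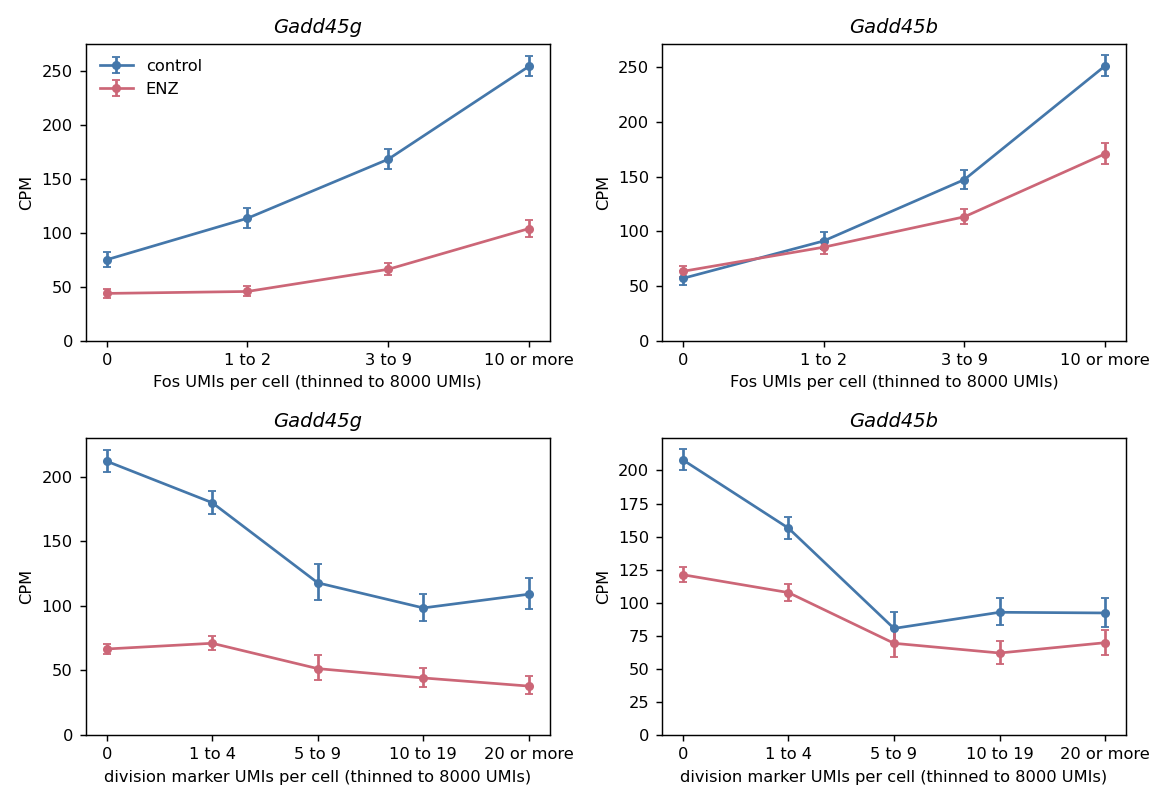
Gadd45g (left) and Gadd45b (right) in cancer cells thinned to 8000 UMIs, binned by Fos UMIs (top) or by the summed UMIs of Top2a, Mki67, Cenpf and Ube2c (bottom). The y axis is CPM with exact Poisson 95% intervals, blue is control and red is ENZ. Gadd45g was lower in the ENZ library in every bin, and both genes were highest in cells with many Fos UMIs and in cells with few division marker UMIs.

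Trp53 and its targets among the members differed little between the libraries. Trp53 was at 250 CPM in control against 225 CPM in ENZ cells (ratio 0.901, 0.885 to 0.917). Cdkn1a was at 252 and 251 CPM (ratio 0.994, 0.977 to 1.01), and its log2 ratio ranged from -0.04 to 0.04 under the processing alternatives. Mdm2 was at 58.1 and 66.1 CPM (ratio 1.14, 1.10 to 1.18). Ccng1 was at 20.9 and 25.1 CPM (ratio 1.20, 1.13 to 1.27), and Phlda3 at 29.9 and 29.7 CPM (ratio 0.993, 0.945 to 1.04). Ccng1 and Mdm2 were the members whose interval lay above 1, and none of these 5 genes was past the threshold. In thinned cells 60.7% of control and 63.2% of ENZ cells had a Cdkn1a UMI, and 81.8% and 78.9% had a Trp53 UMI.

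Of 30 other p53 target genes, 25 had enough UMIs in cancer cells, and 1 was past the threshold upward and 2 downward (3 of 25, beside 2.04% of all genes), with a median log2 ratio of 0.05. Sesn2, a sestrin that restrains mTORC1, was at 13.8 CPM in control against 21.2 CPM in ENZ cells (ratio 1.54). Btg2, an antiproliferative gene that is also an immediate early gene, was at 206 and 126 CPM (ratio 0.611). Gdf15, a stress cytokine, was at 171 and 108 CPM (ratio 0.632). Of 14 p53 regulators and relatives such as Mdm4, Ppm1d and Atm, 12 had enough UMIs and none was past the threshold. By interval 8 of the 12 lay above 1 and 2 below, beside 42.1% and 31.9% of all genes (median log2 ratio 0.14). The p53 relatives Trp63 and Trp73 were both under 0.1 CPM in both libraries. Of the 8 kinases downstream of or bound by GADD45, including Map3k4, Map2k4 and Mapk14, none was past the threshold, and 7 had an interval above 1, beside 42.1% of all genes (median log2 ratio 0.17).

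Among CDK inhibitors, Cdkn1b was at 36.5 CPM in control against 33.2 CPM in ENZ cells (ratio 0.910, 0.869 to 0.953). Cdkn2a was close to absent in cancer cells, with 21 UMIs in 100259049 in the control (0.209 CPM, 0.130 to 0.320) and 17 UMIs in 113713802 in the ENZ library (0.149 CPM, 0.0871 to 0.239). Of the 17 ENZ UMIs, 6 came from 1 barcode. In thinned cells 0.105% of control and 0.0932% of ENZ cells had a Cdkn2a UMI (0.394% and 0.256% before thinning), at a median depth of 21957 and 22693.5 UMIs. Neutrophils had no Cdkn2a UMI in 1269 control cells at a median depth of 2017 UMIs, which allows up to 0.919 CPM by 3 UMIs. The neighbouring Cdkn2b, encoding p15INK4b, was at 0.289 and 0.0704 CPM. Mtap, which lies on the other side of Cdkn2a and was looked at after these values were seen, was at 77.4 and 84.7 CPM in the same cells. Of the other CDK inhibitors, Cdkn1c, Cdkn2c and Cdkn2d had enough UMIs, and the intervals of all 3 lay below 1, as did 31.9% of all genes, without passing the threshold. In non-dividing cells alone Cdkn2c was just past it, with a ratio of 0.666 (interval 0.567 to 0.783). None of 18 cyclin, CDK and RB family genes was past the threshold between the libraries.

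Dividing and non-dividing cells of the same tumor were compared next, in each library apart. The split used none of the 10 genes. Gadd45b and Gadd45g were lower in dividing cells, and were the members past 1.5-fold in both libraries (2 of 9), beside 7.08% of all genes lower and 8.08% higher in both. Gadd45b was at 83.9 CPM in dividing and 171 CPM in non-dividing control cells (ratio 0.490), and at 62.6 and 111 CPM in ENZ cells (ratio 0.562). Gadd45g was at 104 and 185 CPM in the control (ratio 0.565) and at 40.7 and 67.4 CPM in the ENZ library (ratio 0.604). Gadd45a had ratios of 0.759 and 0.821. Along thinned bins of division markers, control Gadd45g was at 212 CPM in cells with none, 180 CPM with 1 to 4 and 98.3 to 118 CPM above that. Dividing cells were deeper, with a median of 32322 UMIs against 18051 in the control. Gadd45g was also lower in cells of greater depth, going from 236 CPM in the shallowest of 4 depth classes of control cells to 119 CPM in the deepest. Between the same classes Gadd45b went from 211 to 92.0 CPM in control and from 134 to 72.5 CPM in ENZ cells. By interval 16 of the 17 immediate early genes were lower in dividing cells in control and 14 in ENZ, beside 44.1% and 42.2% of all genes, with median log2 ratios of -0.36 and -0.38, and Fosb had ratios of 0.614 and 0.594. All 9 rRNA-like genes were lower by interval too, and summed to 11876 CPM in dividing against 19066 CPM in non-dividing control cells, and to 30723 against 44247 CPM in ENZ. The 6 fibroblast markers, all found in each class and led by Col3a1, summed to 597 CPM in dividing against 1343 CPM in non-dividing control cells, and to 456 against 1315 CPM in ENZ. The parts of depth and of these lists in the division ratios were not tested.

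Trp53 went the other way, at 289 CPM in dividing and 216 CPM in non-dividing control cells (ratio 1.34) and at 266 and 196 CPM in ENZ cells (ratio 1.35). It was the only member whose interval lay above 1 in both libraries, beside 33.9% and 37.3% of all genes, and it was not past the threshold. From the shallowest to the deepest class of cells, Trp53 went from 189 to 276 CPM in control and from 165 to 254 CPM in ENZ. The part of depth in its division ratios was not tested. Over whole classes Cdkn1a was nearly level, with ratios of 0.974 (its interval just below 1) and 0.990 (0.966 to 1.01). Cdkn1b (0.803 and 0.903), Mdm2 (0.837 and 0.875) and Ccng1 (0.762 and 0.834) were somewhat lower in dividing cells. Cdkn1b was also lower in deeper cells, from 47.0 to 31.9 CPM between the depth classes in control and 45.5 to 29.8 CPM in ENZ. Ccng1 was higher in deeper cells, from 14.4 to 25.3 CPM in control and 22.1 to 27.9 CPM in ENZ. In thinned cells with 0, 10 to 19 and 20 or more division marker UMIs, Cdkn1b was at 45.5, 29.8 and 42.3 CPM in control. The ENZ values were 36.6, 35.1 and 36.4 CPM. The part of depth in the division ratios of these genes was not tested. Along thinned bins of division markers, Cdkn1a was at 218 CPM in control cells with none, 252 CPM with 10 to 19 UMIs and 185 CPM with 20 or more. For ENZ cells the values were 226, 270 and 194 CPM. Cdkn1a was thus not level within the dividing class. Cdkn1a followed depth and keratins. It was at 152 CPM in the shallowest and 312 CPM in the deepest class of control cells, and at 166 and 304 CPM in ENZ cells. It was at 153 CPM in control cells without a Krt8 or Krt18 UMI and at 318 CPM in those with 10 or more, with 134 and 303 CPM in ENZ cells.

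Of 26 p53 targets with enough UMIs, 2 were past 1.5-fold higher and 6 lower in dividing cells in both libraries, beside 8.08% and 7.08% of all genes. Gtse1, a G2 and S phase gene that binds p53, had the highest dividing to non-dividing ratios, 9.70 and 13.9, and Psrc1, a spindle gene, 2.73 and 3.53. Trp53inp1, which promotes p53-dependent death, had 0.473 and 0.444, and Dcxr, a carbonyl reductase, 0.572 and 0.557. The checkpoint kinases Chek2 (3.06 and 3.31) and Chek1 (2.45 and 2.02) were higher in dividing cells. So were the CDK inhibitors Cdkn2d, encoding p19INK4d (2.98 and 3.10), and Cdkn2c, encoding p18INK4c (2.48 and 3.47). Over whole classes of unequal depth, Cdkn2d and Cdkn2c were thus higher in dividing cells while Cdkn1b was lower and Cdkn1a nearly level. The mitotic cyclins Ccna2 (21.4 and 24.4) and Ccnb1 (17.4 and 25.2) had the highest ratios of the cyclin list, and Ccnd3, a D cyclin, the lowest by the smaller difference (0.616 and 0.642).

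Levels of the same gene were then set against the 9 immune classes. Trp53 and Phlda3 were highest in cancer cells in both libraries, the 2 members for which this held. Trp53 was at 250 and 225 CPM in cancer cells, with NK cells next at 78.5 and 88.6 CPM, and the interval of the ratio to them lay above 1. Phlda3 was at 29.9 and 29.7 CPM in cancer cells and at or under 3.85 CPM in 8 immune classes of either library. In ENZ mature DCs it was at 17.2 CPM, from 5 UMIs of which 4 came from 1 barcode, and this did not differ from cancer cells beyond its interval. Cdkn1b was lowest in cancer cells in both libraries, with 36.5 and 33.2 CPM against 46.2 to 139 CPM in the immune classes.

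Gadd45b, Gadd45a and Cdkn1a were highest in neutrophils. Gadd45b was at 1052 CPM in control and 1020 CPM in ENZ neutrophils, 557 and 397 CPM in monocytes and 461 and 434 CPM in mature DCs, and lowest in the cross-presenting cDC1, at 96.7 and 38.4 CPM. Gadd45a was at 207 and 235 CPM in neutrophils, with monocytes next at 47.5 and 117 CPM. Cdkn1a was at 805 and 739 CPM in neutrophils, 530 and 540 CPM in monocytes and 448 and 468 CPM in macrophages, each above the next by its interval. Mdm2 was also highest in these 3 myeloid classes, led by macrophages in the control (327 CPM) and monocytes in the ENZ library (442 CPM). Ccng1 was highest in Tregs at 42.0 and 52.4 CPM, not beyond the interval of other T cells at 36.2 and 47.0 CPM. Most Cdkn2a UMIs of the immune classes were in T cells, with 17 UMIs in control Tregs (11.0 CPM) and 24 in ENZ Tregs (10.5 CPM), against 1 and 0 UMIs in barcodes of at most 100 UMIs. Control mature DCs had 6 Cdkn2a UMIs (13.9 CPM) and ENZ mature DCs none, which allows up to 10.3 CPM by 3 UMIs.

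**Figure D4:**
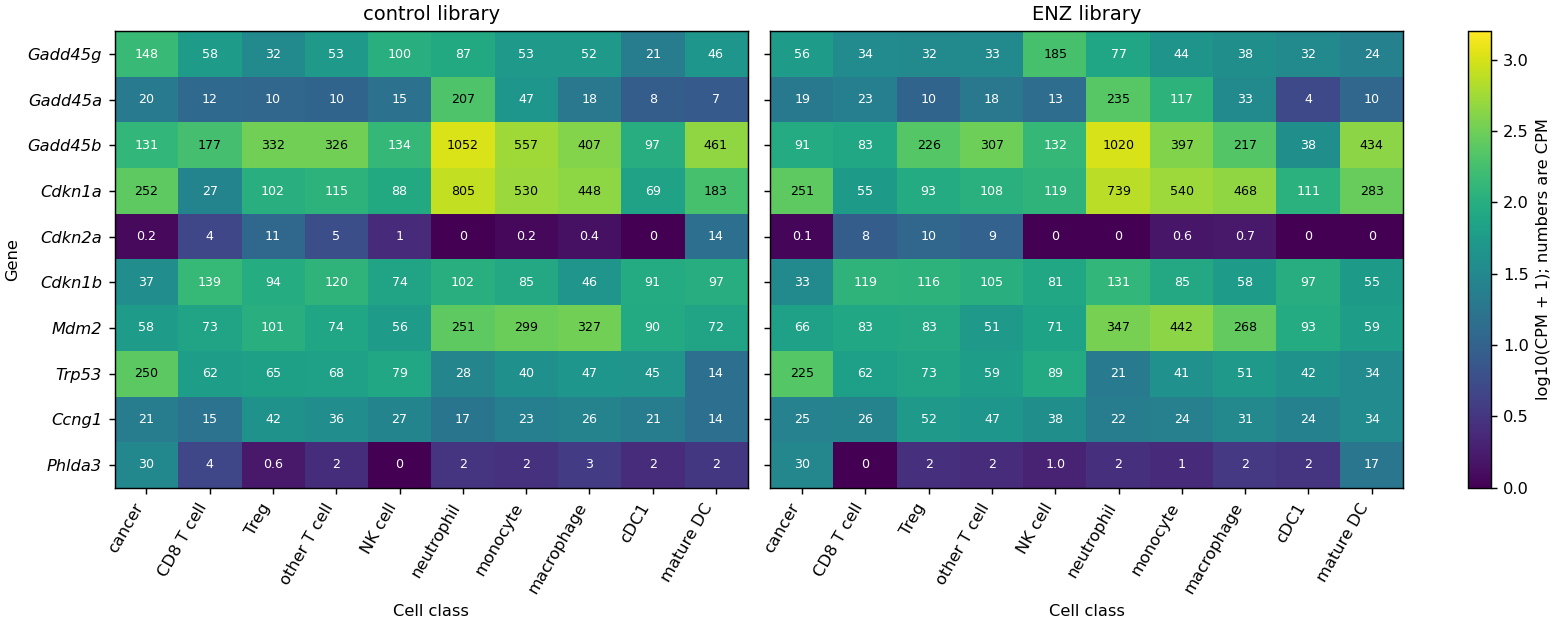
CPM of each gene (rows) in cancer cells and 9 immune classes (columns) of the control (left) and ENZ (right) libraries, coloured by log10(CPM + 1). Gadd45a, Gadd45b and Cdkn1a were highest in neutrophils and Trp53 and Phlda3 in cancer cells, and of the 186 Gadd45g UMIs behind the 185 CPM of ENZ NK cells, 113 came from 1 barcode.

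Gadd45g was highest in control cancer cells (148 CPM), with NK cells at 99.6 CPM and neutrophils at 87.3 CPM, and these last did not differ beyond their interval. In the ENZ library NK cells led at 185 CPM, above neutrophils at 77.4 CPM and cancer cells at 56.5 CPM. The NK level rested on 1 barcode, which held 113 of the 186 Gadd45g UMIs and 69 of the 133 Gadd45b UMIs of the 165 ENZ NK cells. It had 17432 UMIs in all, 4 of 6 NK markers and up to 3 markers of another type, and the next highest NK cell had 8 Gadd45g UMIs. Without the highest barcode of each library, Gadd45g was at 90.9 CPM in control and 74.0 CPM in ENZ NK cells.

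Between the libraries, 68 pairs of a member and an immune class had at least 20 UMIs. Of these, 7 were at least 1.5-fold higher and 7 at least 1.5-fold lower in the ENZ library, or 14 in all, beside 25.2% of 75594 gene and class pairs counted in the same way (14.8% higher and 10.4% lower). The members' share was thus not above that of all genes. Many of the classes were small, and 6 of the 14 pairs had an interval that reached 1. These were Gadd45g in CD8 T cells, other T cells, cDC1 and mature DCs, Cdkn1a in CD8 T cells and Cdkn1b in mature DCs. Gadd45g in NK cells had a ratio of 1.86 (1.52 to 2.27), and of 0.814 (0.613 to 1.07) without the highest barcode of each library. The interval of Gadd45g lay below 1 in macrophages and monocytes, where 15.1% and 16.3% of all genes did so. It was at 52.0 and 38.2 CPM in macrophages (log2 ratio -0.44) and at 52.8 and 44.2 CPM in monocytes (log2 ratio -0.26).

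Gadd45a in monocytes had the highest ratio, at 47.5 CPM in the control (257 UMIs in 1061 cells) and 117 CPM in the ENZ library (810 UMIs in 1300 cells), a ratio of 2.47 (2.14 to 2.85). The share of thinned monocytes with a Gadd45a UMI was 4.24% and 10.3% (16.0% and 31.7% before thinning), at median depths of 4736 and 4979 UMIs. Among cDC1, where Gadd45a was lowest or near lowest, the share was 0.658% of thinned control cells (5.26% before thinning, at a median depth of 8547 UMIs). Free RNA, as read from Krt8 and Krt18, made up at most 4.52% of the UMIs of control and 5.12% of ENZ monocytes. In control cDC1 it made up at most 2.92%. Macrophages also had more Gadd45a, at 18.3 and 33.1 CPM (ratio 1.81, 1.45 to 2.26), where the median log2 ratio of all genes was 0.17. The 6 neutrophil markers summed to 263 CPM in control and 755 CPM in ENZ monocytes, led by S100a9 and S100a8, against 49225 and 53428 CPM in neutrophils themselves. In macrophages they summed to 375 and 170 CPM. All 6 were found in both classes of both libraries. The 6 monocyte markers, all found, summed to 910 CPM in control macrophages, led by Plac8, against 1424 CPM in ENZ, led by F13a1. The part of these markers in the Gadd45a ratios was not tested.

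Gadd45b was lower in the ENZ library in 5 of 9 immune classes by its interval, where 10.4% to 16.3% of all genes had an interval below 1. Macrophages were at 407 and 217 CPM (ratio 0.534, 0.498 to 0.573) and monocytes at 557 and 397 CPM (ratio 0.713, 0.677 to 0.751). Tregs were at 332 and 226 CPM (ratio 0.682, 0.602 to 0.772), cDC1 at 96.7 and 38.4 CPM (ratio 0.397, 0.231 to 0.647) and CD8 T cells at 177 and 83.1 CPM (ratio 0.469, 0.289 to 0.752), the last from 46 and 32 UMIs. The immediate early list differed in these classes as well. Its sum was 13893 and 10065 CPM in macrophages, 19884 and 16675 CPM in monocytes, 7481 and 6349 CPM in Tregs, 9601 and 5634 CPM in cDC1 and 5910 and 4646 CPM in CD8 T cells. Hspa1a, a heat shock gene, was the most abundant of the list in all 5. By interval, 12 of 17 genes were lower and 2 higher in monocytes, 6 lower and 2 higher in Tregs, 5 lower and 7 higher in macrophages, 5 lower and 4 higher of 16 in cDC1, and 3 lower of 8 in CD8 T cells. In Tregs the 6 macrophage markers, led by C1qb, summed to 257 CPM in control and 57.2 CPM in ENZ cells, and the 6 neutrophil markers to 127 and 56.3 CPM, all with UMIs. The 6 NK markers, led by Gzma and all with UMIs, summed there to 336 and 167 CPM. In cDC1 the neutrophil markers, led by S100a9, summed to 335 and 42.5 CPM, with Cxcr2 and G0s2 at 0 in the ENZ library. The parts of these lists in the Gadd45b ratios were not tested. Neutrophils, with the highest level, were at 1052 and 1020 CPM (ratio 0.970, 0.906 to 1.04). NK cells were at 134 and 132 CPM, and at 130 and 64.9 CPM without the highest barcode of each library (ratio 0.500, 0.375 to 0.658).

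**Figure D5:**
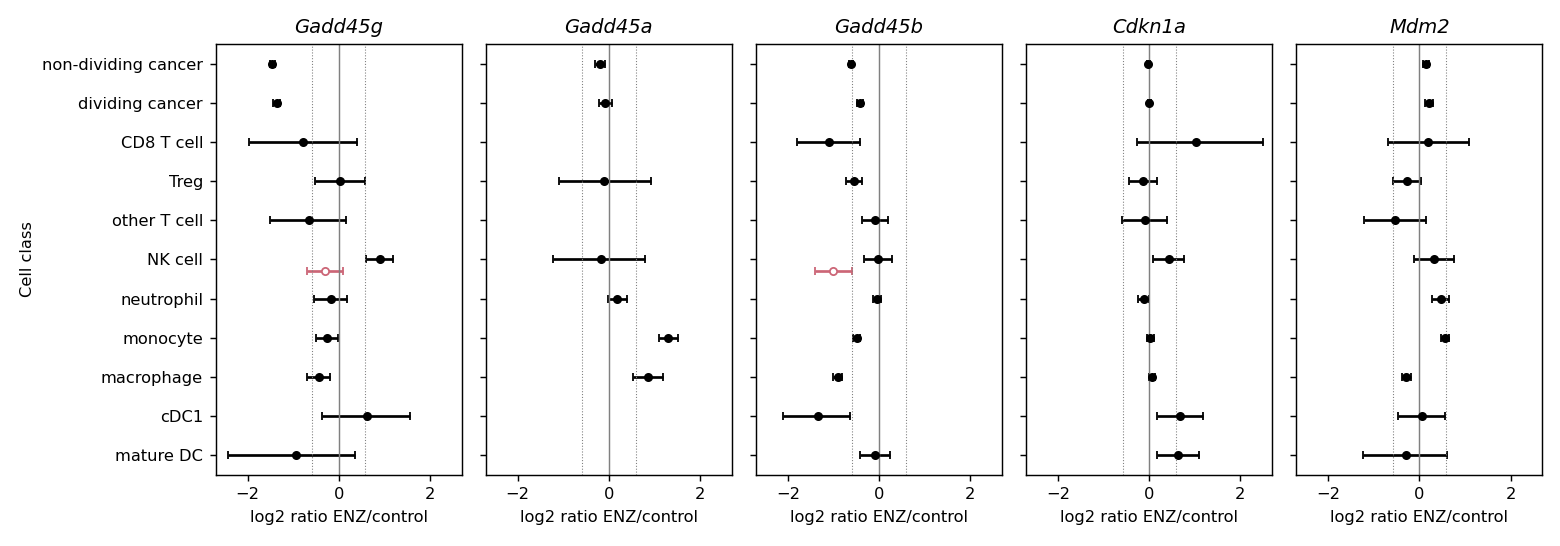
ENZ/control log2 ratio (x axis) of 5 genes in cancer cells and immune classes (y axis), shown where at least 20 UMIs were counted, with exact 95% counting intervals. Dotted lines mark 1.5-fold, and open red points in NK cells leave out the barcode with the most UMIs in each library. Gadd45g was far below 0 in cancer cells, Gadd45b was below 0 in several classes, Gadd45a was above 0 in monocytes and macrophages, and Cdkn1a lay near 0 in the large classes.

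Cdkn1a in the large myeloid classes was close between the libraries, with ratios of 0.919 in neutrophils (0.849 to 0.994), 1.02 in monocytes (0.971 to 1.07) and 1.04 in macrophages (0.991 to 1.10). It was higher in ENZ NK cells, at 87.7 and 119 CPM (log2 ratio 0.43), without passing the threshold. The NK ratio was 1.35 (1.05 to 1.74) without the highest barcode of each library. Cdkn1a was also higher in ENZ cDC1, at 69.4 and 111 CPM (ratio 1.60, 1.12 to 2.27), and in ENZ mature DCs, at 183 and 283 CPM (ratio 1.54, 1.12 to 2.13). Both fell short of 1.5-fold in 2 alternatives each, and in cDC1 the log2 ratio of 0.68 was 0.19 when cells were weighted equally and 0.44 without cells with at least 3 division marker UMIs. The control mature DCs also held NK markers, led by Gzma at 447 CPM, with a sum of 510 CPM for 5 of 6 markers, against 6.89 CPM for 1 of 6 in ENZ mature DCs. The class's own 6 markers summed to 4124 and 7087 CPM. Their part in the Cdkn1a ratio was not tested. Mdm2 was higher in ENZ monocytes, at 299 and 442 CPM (ratio 1.48, 1.39 to 1.57), and neutrophils, at 251 and 347 CPM (ratio 1.38, 1.22 to 1.56), but lower in macrophages, at 327 and 268 CPM (ratio 0.819, 0.766 to 0.875). No Mdm2 pair reached 1.5-fold as counted here, but monocytes did in 4 of 9 alternatives, and neutrophils and other T cells in 1 each. In neutrophils the log2 ratio of 0.47 was 0.17 among cells with at least 2000 UMIs. The 6 macrophage markers, all found and led by C1qb, summed to 617 CPM in control and 259 CPM in ENZ neutrophils. Their part in the Mdm2 ratio was not tested. Trp53 had an interval that reached 1 in all 8 classes with enough UMIs. The noncoding locus Gm42418, which collects ribosomal RNA reads, took 1.08% of the UMIs of control and 2.92% of ENZ cancer cells, and 2.34% to 4.22% of control and 6.17% to 9.38% of ENZ immune cells. Of the 9 genes on the list fixed as rRNA-like, 7 were at least 1.5-fold higher in ENZ cancer cells. That list includes the protein-coding Cdk8, Cmss1, Lars2, Filip1l, Gphn and Camk1d. CPM of every other gene is lowered by such a share.

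The genes whose levels over 11 classes (dividing and non-dividing cancer cells and the 9 immune classes) were most like those of a member were ranked by the mean of both libraries' Pearson correlations of log2(CPM + 1), among 9933 genes. For Gadd45g these were Proc, Kctd11, Styk1, Vegfc and Eya1, with a mean r of 0.85 to 0.76. For Gadd45a they were Nfe2, Gsr, Lrg1, Sde2 and Blcap (0.94 to 0.92), and for Gadd45b Sik3, Ddx60, Cyth1, Tgoln1 and Birc3 (0.90 to 0.89). For Cdkn1a they were Atp6v1a, Fndc3b, Pla2g4a, Gab2 and Maff (0.95 to 0.93). The classes of a library share its free RNA and depth, and the Gadd45g ranking includes the ENZ NK level that rests on 1 barcode (185 CPM, or 74.0 CPM without it).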

How the data were processed

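Raw UMI counts per gene and barcode were deposited by the authors for 32285 genes, 1 matrix for each of 2 libraries. The deposited counts come from Cell Ranger 7.2.0 per the file headers, while the submitters' processing notes name Cell Ranger 2.1.1 and mm10. Whether intronic reads were counted is not given in the sources used here. Gene identifiers and barcode lists, which carry no measurement, were used as deposited.

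From these counts, cells were gated by UMIs of fixed markers (3 of 6 for an immune class), without clustering, batch correction or a doublet caller. Gates took 4820 of 7646 control and 3406 of 5455 ENZ eligible non-cancer barcodes, and all 10 leading genes of each class were checked against the markers. UMIs were summed per class and library. Levels have exact Poisson and ratios exact conditional binomial (Clopper-Pearson) 95% intervals, for counting error only. With 1 library a group there was no test. The members, lists and gates were chosen with earlier results of these data known. From each list, at most 2 genes in each direction past 1.5-fold are named, for cell division by the smaller difference of the 2 libraries. Positions are from GENCODE M21 on GRCm38, where 32158 identifiers matched, and promoters from RefSeq. Python 3.11.15, numpy 2.4.6, scipy 1.17.1, pandas 2.3.3 and matplotlib 3.10.9 were used.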

Additional observations from a re-analysis of the deposited data

Results flagged for a closer look

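Gadd45g went in opposite directions in cancer cells and NK cells, with a log2 ENZ/control ratio of -1.39 in cancer cells and 0.89 in NK cells. The difference between these ratios was not tested. The NK value turned to -0.30 without the barcode with the most Gadd45g UMIs in each library.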

How the results depend on the processing

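The count of members past 1.5-fold stayed the same in all cancer cells under 11 alternatives, and in dividing cells, in non-dividing cells and between them under 13, as did the count highest in cancer cells under 9. The count of pairs of a member and an immune class was 8 instead of 14 with at least 4 of 6 markers, where 49 pairs in 6 classes were left, and 9 without immune cells with at least 3 UMIs of the division markers (61 pairs). It was 12 without the barcode with the most UMIs of the gene in each library, a setting added after the data were seen, which also turned the log2 ratio of Gadd45g in NK cells from 0.89 to -0.30. Of 1148 values of single genes under the alternatives, 1073 stayed within the counting interval, 74 left it with the same sign or without having been past 1.5-fold, and 1 reversed. Gadd45g in cancer cells ranged from -1.45 to -1.33 in log2, and Gadd45b from -0.58 to -0.48. Median-of-ratios scaling moved values in macrophages by 0.17, which put Gadd45a there at 0.69. No paired analysis was possible because each group is 1 library. A class of 52 to 83 cells, such as CD8 T cells or mature DCs, held under 50 UMIs of most members.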
